A study of Mus musculus with 10 samples.

Results

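U90926 is a mouse gene of chromosome 5 that is annotated both as a long noncoding RNA and as a small coding gene. It was chosen for its pattern over the 3 groups of libraries, so its own levels and differences are given as a description, with no test. It was chosen by its signal in all 10 libraries, which is low in treated all, intermediate in PD-L1 high and high in untreated all. It occupied 1 of the 24812 rows with values in the deposited table, and its group means were 61.6, 3.60 and 231 in PD-L1 high, treated all and untreated all.

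The bulk RNA libraries came from tumor cells of a mouse pancreatic cancer, pancreatic ductal adenocarcinoma (PDAC). Interferon gamma (IFNγ) is a cytokine that tumor cells sense through a receptor linked to JAK kinases, and PD-L1 is a surface protein that restrains T cells by binding PD-1. The PD-L1 high group holds 3 libraries of cells given recombinant mouse IFNγ and collected by flow cytometry for high surface PD-L1; their strain labels read C57BL/7, C57BL/8 and C57BL/9. The treated all group holds 3 libraries of cells given IFNγ and collected over all PD-L1 levels, and the untreated all group holds 4 libraries of cells without IFNγ over all PD-L1 levels; both carry the strain label C57BL/6. Collection was at 20 hours, per the labels. Treated all can itself contain cells with high PD-L1, no group of low PD-L1 cells is analysed here, and nothing in the labels says that the libraries came from separate cultures. The p-values below therefore measure the spread between these libraries, which may be technical.

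In mouse macrophages, U90926 RNA is known to increase after Toll-like receptor stimulation, and its short reading frame has been reported to yield a small secreted protein. In mouse preadipocytes it has been described as a restraint on adipocyte differentiation that acts on the fat cell regulator Pparg. Whether the transcript acts mainly as an RNA or through its reading frame is unsettled, and both annotations are in use.

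GENCODE M21 places U90926 on the minus strand of chromosome 5 at chr5:92209893-92215408 (GRCm38), a span of 5516 bases, as a protein coding gene. RefSeq places it at 92209895 to 92215408, a span of 5514 bases, as a long noncoding RNA. No other annotated gene overlapped it, so neither a host gene nor an antisense partner shares its exons. GENCODE lists 3 transcripts: a form with 5 exons and 524 bases, a form with 6 exons and 520 bases, and a retained intron form with 3 exons and 400 bases. In the deposited table the row of U90926 carried a description and an entry in the nr protein column, while its GO, KO, pathway, COG, Pfam and Swiss-Prot fields were empty. The form with 6 exons has a longer annotated reading frame, of 357 bases with its stop codon, which is not shown here. The reading frame of the form with 5 exons has 264 bases with its stop codon, or 87 codons before it, and runs from exon 2 to exon 5 on the minus strand of chr5:92210028-92212838. It is shown because it is the part on which the coding and noncoding annotations differ, with the start and stop codons in capitals (GENCODE M21, GRCm38).
U90926 reading frame: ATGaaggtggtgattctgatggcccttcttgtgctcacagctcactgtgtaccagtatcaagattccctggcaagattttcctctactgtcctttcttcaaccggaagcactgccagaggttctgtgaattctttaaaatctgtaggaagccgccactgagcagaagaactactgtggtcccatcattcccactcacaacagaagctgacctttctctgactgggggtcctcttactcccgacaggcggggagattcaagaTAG

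The RNA signal of U90926 was highest without IFNγ, lowest in treated all and intermediate in PD-L1 high. PD-L1 high libraries 1 to 3 had a signal of 67.7, 67.0 and 50.1. Treated all libraries 1 to 3 had 3.18, 4.53 and 3.08. Untreated all libraries 1 to 4 had 228, 235, 231 and 229.7. The 3 groups did not overlap: every PD-L1 high library lay above every treated all library and below every untreated all library. The deposited value is a normalized signal; its unit is not stated in any source used here.

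**Figure D1:**
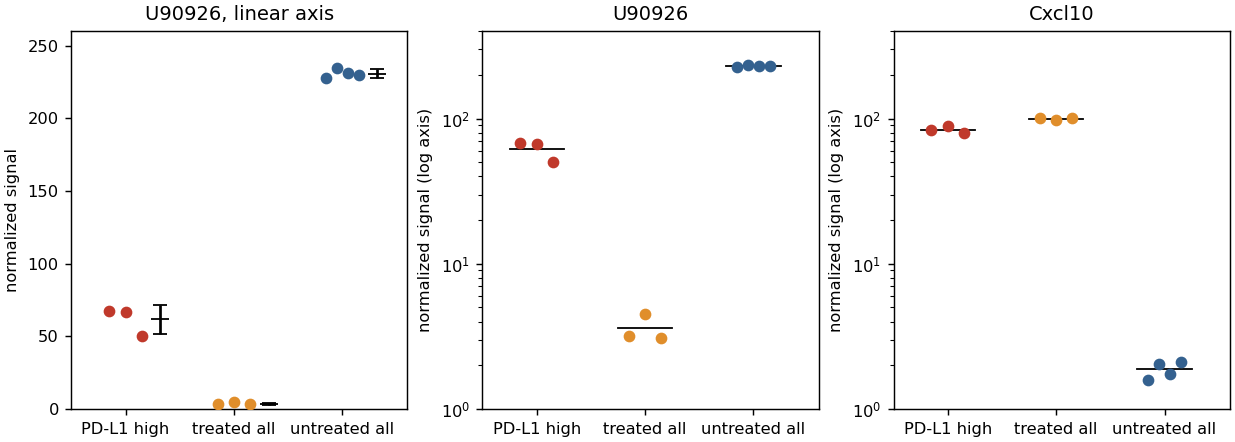
Normalized signal of U90926 in each library on a linear axis (left, with the mean and SD beside the points) and on a log axis (middle), and of its neighbour Cxcl10 on a log axis (right), in PD-L1 high, treated all and untreated all. Points are libraries and lines are group means; U90926 is at 61.6 in PD-L1 high, 3.60 in treated all and 231 in untreated all, while Cxcl10 is at 84.1, 99.96 and 1.87 in the same groups.

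Treated all averaged 3.60 ± 0.805 (SD, n = 3) and untreated all 231 ± 3.02 (SD, n = 4), so that treated all retained 1.56% of the untreated level. On the scale of log2(signal + 1), on which all differences below are given, treated all minus untreated all was -5.67 with a standard error of 0.14 from the replicates. The untreated mean was 64.2 times the treated all mean, and even the lowest untreated library was 50.3 times the highest treated all library. In bulk RNA, fewer cells that carry the transcript and less of it per cell cannot be told apart.

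PD-L1 high averaged 61.6 ± 9.94 (SD, n = 3), against 3.60 ± 0.805 in treated all. The log2 difference was 3.77 with a standard error of 0.20, a mean 17.1 times as high in PD-L1 high, and the lowest PD-L1 high library was 11.1 times the highest treated all library. Treated all was at 5.84% of the PD-L1 high mean. If treated all contained PD-L1 high cells, they were part of this value; their share was not measured.

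Against untreated all, PD-L1 high was at 26.7%, a log2 difference of -1.90 with a standard error of 0.14. The untreated mean was 3.75 times the PD-L1 high mean, and the lowest untreated library was 3.36 times the highest PD-L1 high library. The order of the levels was therefore untreated all, PD-L1 high and treated all, with each neighbouring pair in that order further apart than the ranges of its libraries.

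The libraries of U90926 scattered unequally within groups. Its coefficient of variation was 16.1% in PD-L1 high, 22.4% in treated all and 1.31% in untreated all. Among the 1649 genes whose PD-L1 high mean lay within 1.5 times of that of U90926, the median was 3.33%, and 1626 of them (98.6%) varied less. In treated all, 1095 of 1285 genes of like level (85.2%) varied less, with a median of 10.4%. In untreated all, 116 of 409 such genes (28.4%) varied less, with a median of 2.03%. PD-L1 high library 3, at 50.1, was the low one of its group, and treated all library 2, at 4.53, was the high one of its group.

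The small spread of the untreated group carries a limit. For U90926 the mean of untreated libraries 3 and 4 was 231, as was that of libraries 1 and 2, a log2 difference of -0.0039. Over all 11487 tested genes the median size of the difference between these pairs was 0.0026, against 0.052 and 0.066 for the other pairings of the 4 libraries. The values of U90926 in the other 8 libraries differed within groups by whole multiples of 0.01 times 0.907, to within 0.0014 of a multiple, whereas over all 10 libraries the best factor left a distance of 0.113. No label or header explains this. Unless libraries 3 and 4 are left out, the limma p-values below count the 4 untreated libraries as separate and may be too small. Without untreated libraries 3 and 4 the differences of U90926 were -5.67 in treated all against untreated all, 3.77 for PD-L1 high against treated all and -1.90 in PD-L1 high against untreated all.

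For the whole table, 24755 genes remained after rows sharing a symbol were added up, and 11487 with a mean signal of at least 1 were tested with limma at a Benjamini-Hochberg adjusted p under 0.05. Correlations between library profiles were 0.987 to 0.992 within groups and 0.941 to 0.987 between groups. In treated all against untreated all, 23.1% of tested genes rose and 38.8% fell (2648 and 4458). For PD-L1 high against treated all, 11.5% rose and 14.1% fell (1320 and 1623), and for PD-L1 high against untreated all, 19.1% rose and 41% fell (2189 and 4711). After median-ratio scaling these numbers were 3538 and 3469, 1597 and 1372, and 3216 and 3154 in the same order; after upper-quartile scaling they were 2892 and 4128, 1719 and 1264, and 2722 and 3823. Cd274, which encodes PD-L1, followed the sort: 47.5 ± 1.17 in PD-L1 high (SD, n = 3), 33.0 ± 0.706 in treated all (SD, n = 3) and 2.58 ± 0.167 in untreated all (SD, n = 4).

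Set beside all other tested genes, U90926 had the most negative log2 difference of 11487 in treated all against untreated all. Without untreated library 2 and with a pseudocount of 0.1 its place was 2. The median difference over all tested genes was -0.07. On this scale 188 genes were at least 2-fold lower, 20 at least 4-fold, 6 at least 8-fold, 2 at least 16-fold and 1 at least 32-fold, which was U90926. The gene was therefore first among the 276 tested RefSeq long noncoding RNAs and first among the 10979 tested GENCODE protein coding genes.

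**Figure D2:**
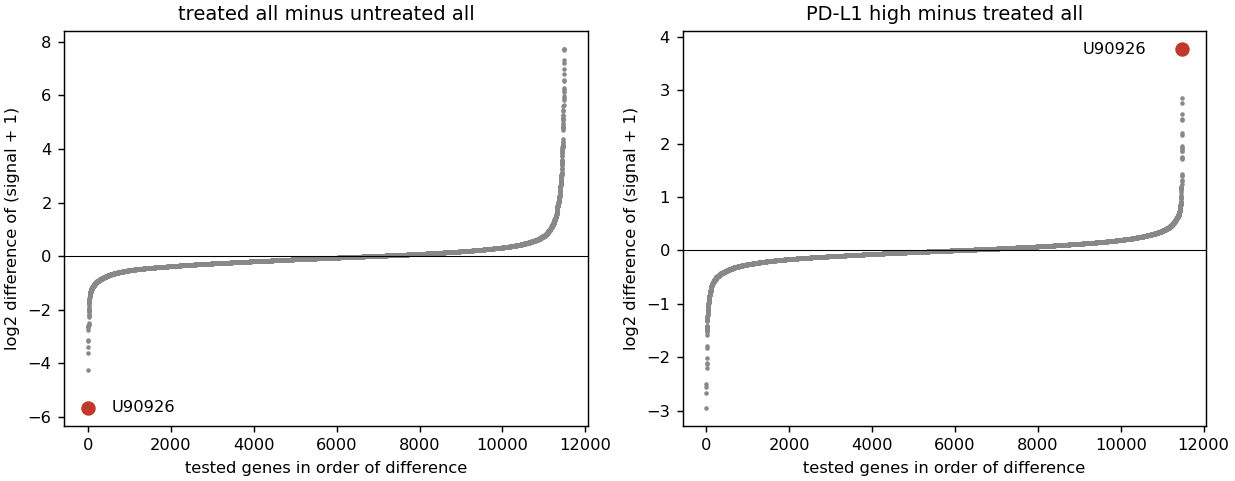
Log2 difference of (signal + 1) for each of the 11487 tested genes in increasing order, for treated all minus untreated all (left) and PD-L1 high minus treated all (right). U90926, the enlarged point, is the lowest at -5.67 on the left and the highest at 3.77 on the right.

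Next in size came short RNAs and longer transcripts. Rnu11, a small nuclear RNA of the minor spliceosome, was listed at 0 in every treated all library and averaged 46.1 ± 45.0 in untreated all (SD, n = 4), so its libraries overlapped although limma called it (adjusted p = 0.036). That call was lost in 12 alternative fits (adjusted p = 0.052 to 0.20), among them those without any single PD-L1 high or treated all library, without untreated library 1, 3 or 4, and without untreated libraries 3 and 4 together. The small nucleolar RNAs Snora26, Snora20 and Snord118 were likewise listed at 0 in treated all, averaged 23.3, 19.3 and 17.3 in untreated all with standard deviations above those means, and did not pass the test. Such short RNAs are poorly captured by standard RNA libraries.

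Among longer transcripts, a pair with clone names, chosen after their values were seen, ranked 4th and 5th of all genes. F630206G17Rik, a RefSeq long noncoding RNA, had 7.66, 10.3 and 14.9 in PD-L1 high, 6.55, 0 and 0 in treated all, and 6.62, 40.6, 27.8 and 20.1 in untreated all. In treated all against untreated all it fell by 3.42 (adjusted p = 0.0098, and 0.077 without untreated libraries 3 and 4), with its lowest untreated library just above its highest treated all library. A830018L16Rik, annotated as protein coding, had 6.69, 5.64 and 8.75 in PD-L1 high, 0.831, 3.14 and 0.387 in treated all, and 16.7 to 20.4 in the 4 untreated all libraries, so its 3 groups did not overlap and had the order of U90926. It fell by 3.16 in treated all against untreated all (adjusted p = 3.0e-05).

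Pagr1a, a partner of the MLL histone methyltransferase complexes, fell by 3.15 on the log2 scale (adjusted p = 6.9e-04), with 0.0938 ± 0.163 in treated all and 10.1 ± 5.90 in untreated all. Ccdc191, a coiled-coil gene, fell by 2.63 (adjusted p = 0.0012), with 2.23 ± 0.514 in treated all and 21.8 ± 12 in untreated all. Spink4, a secreted protease inhibitor of goblet cells, fell by 2.58 (adjusted p = 2.2e-05), with 0.674 ± 0.598 against 8.51 ± 0.570. Pagr1a, Ccdc191 and Spink4 began far below the untreated signal of U90926. H2ac18, a histone H2A gene with near-identical copies among which reads may be split, fell by 2.66 (adjusted p = 0.012, and 0.074 without untreated libraries 3 and 4). Exosc6, an RNA exosome subunit, was listed at 0 in treated all and averaged 4.24 ± 3.27 in untreated all (adjusted p = 0.0039).

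Fos, the immediate early transcription factor, was the largest called fall of a gene with an untreated signal above that of U90926. Its PD-L1 high libraries had 120.1, 125 and 123. Its treated all libraries had 59.1, 57.1 and 55.3. Its untreated all libraries had 352, 354, 353 and 351. These groups did not overlap either, and the order of the levels was that of U90926. The differences of Fos were smaller: -2.60 ± 0.03 in treated all against untreated all (limma standard error, adjusted p = 1.2e-14) and 1.09 ± 0.03 for PD-L1 high against treated all (adjusted p = 1.0e-09).

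On the linear scale, U90926 came 14th from the lowest share remaining among genes with an untreated mean of at least 10, not 1st. Of 7753 tested genes with an untreated mean of at least 10, treated all retained under 5% in 14 and under 25% in 24. Of those 14 genes, 12 were listed at 0 in treated all and the other two were Pagr1a, at 0.930%, and U90926, at 1.56%. Fos retained 16.2%, Egr1 22.9% and Dusp1 24.0%. In PD-L1 high, 9 genes retained under 5% and 15 under 25%; U90926, at 26.7%, lay just above that second limit, and Fos, Egr1 and Dusp1 retained 34.8%, 46.3% and 37.0%.

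When PD-L1 high was set against untreated all, U90926 was the 15th lowest of 11487, and 113 genes were at least 2-fold lower. Within classes it was the lowest of 276 long noncoding RNAs and the 6th lowest of 10979 protein coding genes. With a pseudocount of 0.1 it came 40th and with a pseudocount of 4 it came 3rd of all genes. Larger differences were those of the small RNAs Rnu11, Snora26, Snora17, Snora20 and Snord118, all listed at 0 in PD-L1 high, and of Pagr1a (-2.57), Ccdc191 (-2.31), Cfd (-2.24), Spink4 (-2.12) and H2ac18 (-2.05). Of these, Rnu11 (adjusted p = 0.037), Pagr1a (0.0025), Ccdc191 (0.0028), Cfd, the adipocyte protease adipsin (0.0078), Spink4 (1.0e-04) and H2ac18 (0.036) passed the test in limma. The call of Rnu11 was lost in 12 alternative fits (adjusted p = 0.054 to 0.20), among them the same omissions of libraries as above. That of H2ac18 was lost in 10 (adjusted p = 0.051 to 0.15), among them those without PD-L1 high library 1 or 3, treated all library 2 or any single untreated library, and with a pseudocount of 0.1. That of Cfd was lost without untreated libraries 3 and 4 (adjusted p = 0.059).

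When PD-L1 high was set against treated all, U90926 had the highest log2 difference of 11487 genes, where the median was -0.01. Its place was 3 without PD-L1 high library 2 or 3, and with a pseudocount of 0.1. At least 2-fold higher were 34 genes, at least 4-fold 8, and at least 8-fold 1, which was U90926. It therefore led both the 276 long noncoding RNAs and the 10979 protein coding genes. Many of the genes next in size were listed at 0 in all treated all libraries. The microRNA and small nucleolar RNA genes among them did not pass the test: Mir703 averaged 54.6 ± 94.6 in PD-L1 high (SD, n = 3, adjusted p = 0.37) and Mir6340 29.5 ± 51.0 (adjusted p = 0.50). Longer transcripts ranked among them. F630206G17Rik came 4th of all genes at 2.56 and did not pass (adjusted p = 0.082, and 0.013 without treated all library 1), and A830018L16Rik came 12th at 1.86 (adjusted p = 0.0049). Vmn1r4, a pheromone receptor gene, was listed at 0 in treated all and averaged 3.57 ± 2.77 in PD-L1 high (adjusted p = 0.018). That call was lost in 6 alternative fits (adjusted p = 0.051 to 0.081), among them those without PD-L1 high library 1 or 3 or treated all library 1 or 3. Tcerg1l, a gene related to a transcription elongation regulator, had 2.33 ± 1.15 in PD-L1 high and 0.225 ± 0.199 in treated all (log2 difference 1.39, adjusted p = 0.0031). Adam12, a membrane protease gene, averaged 9.54 ± 14.0 against 0.537 ± 0.368 and did not pass (log2 difference 1.85, adjusted p = 0.15), with 25.7 in PD-L1 high library 2 alone. Without that library Adam12 passed in limma, at a smaller log2 difference of 0.70 (adjusted p = 0.042).

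Few genes shared both steps of U90926, a difference of -1 or less in treated all against untreated all and of 1 or more for PD-L1 high against treated all: 17 besides U90926, 7 of them with only a predicted or clone name. The 2 comparisons share the treated all libraries, so a low value there enters both. The other 10 were Mir8098, Kifc5b, Mir6340, Ccnf, Adam12, Tcerg1l, Fos, Snora75, H4c12 and Exosc6. Of the 17, 6 passed the test in both comparisons, among them A830018L16Rik and, of the 10 just named, Kifc5b, Ccnf, Tcerg1l and Fos. The 17 were chosen by the size of these same differences, and the share of all tested genes called in both was not counted. Kifc5b, a minus-end directed spindle kinesin with a close relative in Kifc1 that may share its reads, had 9.66, 11.9 and 9.30 in PD-L1 high, 3.02, 5.69 and 2.55 in treated all, and 19.1, 20.5, 19.4 and 20.1 in untreated all. Its log2 differences were -2.18 ± 0.18 (limma standard error, adjusted p = 2.7e-06) and 1.29 ± 0.19 (adjusted p = 9.7e-04).

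Ccnf, which encodes cyclin F, a subunit of a ubiquitin ligase, had 23.8, 20.7 and 22.3 in PD-L1 high, 12.3, 7.28 and 7.68 in treated all, and 32.6, 37.9, 34.2 and 36.2 in untreated all. Its differences were -1.88 ± 0.14 (adjusted p = 1.2e-06) and 1.24 ± 0.15 (adjusted p = 2.5e-04). Like U90926, Kifc5b and Ccnf kept their 3 groups apart in every library, as did Fos, Egr1 and Dusp1. The share of all tested genes that do so was not counted, so this trait is not known to be particular to these genes. Tcerg1l did not keep its groups apart: its PD-L1 high and untreated all libraries overlapped, at 2.64, 1.06 and 3.29 against 1.74, 1.89, 2.51 and 1.22. In PD-L1 high, Kifc5b was at 51.9% and Ccnf at 63.3% of its untreated mean, above the 26.7% of U90926.

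**Figure D3:**
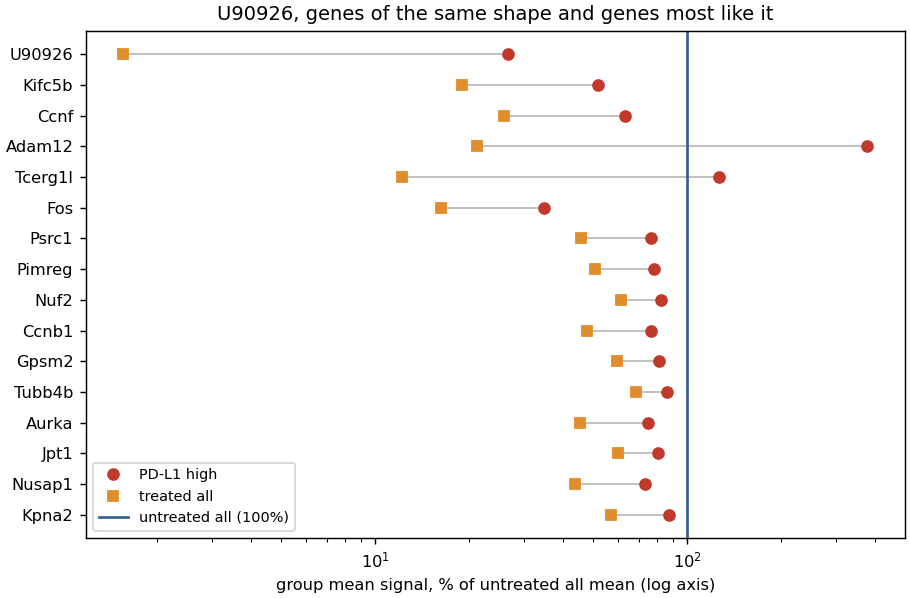
Group mean signal of U90926, of the genes with both steps that were above 0 in treated all, and of the 10 genes whose profile is most like that of U90926, as a percentage of each gene's untreated all mean (log axis). Circles are PD-L1 high, squares are treated all and the line at 100% is untreated all; U90926 is at 26.7% and 1.56%, and all 10 of the most similar genes lie above 40% in both.

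By Pearson's r over the 10 libraries on the log2 scale, the profiles most like that of U90926 were those of Psrc1 (0.998), Pimreg (0.997), Nuf2 (0.996), Ccnb1 (0.996), Gpsm2 (0.995), Tubb4b (0.995), Aurka (0.994), Jpt1 (0.993), Nusap1 (0.993) and Kpna2 (0.993). The 10 libraries fall into 3 groups, so r over them follows mainly the spacing of 3 group means, not the size of the steps. The 10 genes moved far less than U90926. Their differences lay between -1.17 and -0.55 in treated all against untreated all and between 0.33 and 0.73 for PD-L1 high against treated all. Each passed the test in limma in both, but the genes were picked for this profile in these same libraries, so the calls add no support. Psrc1, which encodes a microtubule-associated protein, had 30.6 ± 1.29 in PD-L1 high, 18.4 ± 0.751 in treated all and 40.2 ± 0.901 in untreated all (SD, n = 3, 3 and 4). Ccnb1, cyclin B1, had 101 ± 1.69, 62.9 ± 2.57 and 132 ± 3.29 in the same groups, and Kpna2, an importin, 394 ± 5.92, 257 ± 4.09 and 452 ± 7.88.

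The list depended on the measure of likeness. With Spearman's rho 0 of the 10 genes were shared, and with Pearson's r on the untransformed signal 0 were shared, whereas 9 were shared when untreated libraries 3 and 4 were left out. On the untransformed signal Fos came 4th, after Clu, Numa1 and Plcb3.

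U90926 lies in a part of chromosome 5 that also holds the IFNγ-inducible chemokine genes Cxcl9, Cxcl10 and Cxcl11, whose products attract T cells through the receptor Cxcr3. The 250 bases before the annotated starts of U90926, Cxcl9 and Cxcl10 are shown because these neighbours moved in opposite directions in treated all. All 3 are on the minus strand and are written 5′ to 3′ (RefSeq, GRCm38.p6): chr5:92215409-92215658 for U90926, chr5:92328080-92328329 for Cxcl9 and chr5:92348890-92349139 for Cxcl10. Capitals mark matches to the motifs named after them.
U90926: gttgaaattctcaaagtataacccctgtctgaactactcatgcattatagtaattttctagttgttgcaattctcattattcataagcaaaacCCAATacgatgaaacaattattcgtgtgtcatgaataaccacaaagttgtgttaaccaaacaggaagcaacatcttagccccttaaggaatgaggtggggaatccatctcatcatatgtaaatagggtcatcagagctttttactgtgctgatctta
Cxcl9: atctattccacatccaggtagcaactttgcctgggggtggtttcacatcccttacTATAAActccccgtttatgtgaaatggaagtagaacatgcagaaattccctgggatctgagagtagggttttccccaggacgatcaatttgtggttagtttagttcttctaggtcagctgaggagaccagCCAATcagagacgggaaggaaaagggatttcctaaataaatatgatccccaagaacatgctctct
Cxcl10: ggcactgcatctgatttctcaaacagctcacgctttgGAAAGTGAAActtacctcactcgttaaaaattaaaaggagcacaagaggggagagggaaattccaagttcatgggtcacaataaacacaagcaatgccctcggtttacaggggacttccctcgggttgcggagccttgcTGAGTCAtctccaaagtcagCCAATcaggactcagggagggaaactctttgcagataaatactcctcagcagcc

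Searched on both strands, with the share of 32851 RefSeq promoters of this length that hold each, were the motifs TTCNNNGAA (GAS, bound by STAT dimers, 7.02%), GAAA, 2 free bases and GAAA (ISRE core, bound by interferon regulatory factors, 2.98%), TGANTCA (AP-1, 6.75%), GGGA, 1 free base and TTTCC (NF-kB, 0.356%), TTGCNNAA (C/EBP, 9.56%), TATAAA (12.4%) and CCAAT (33.8%). The window of U90926 held CCAAT alone, at -157 to -153 from the start. That of Cxcl9 held TATAAA at -195 to -190 and CCAAT at -65 to -61. That of Cxcl10 held the ISRE core at -213 to -204, TGAGTCA of the AP-1 motif at -74 to -68 and CCAAT at -54 to -50. A match is a match of letters, and an absent one says only that these letters were not in this window.

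Cxcl10, 131.2 kb from U90926, ran against it in treated all. Its libraries had 83.6, 89.0 and 79.7 in PD-L1 high, 101, 98.4 and 101 in treated all, and 1.59, 2.04, 1.74 and 2.12 in untreated all. It rose by 5.14 ± 0.07 on the log2 scale in treated all (limma standard error, adjusted p = 1.2e-13), and in PD-L1 high it was lower than in treated all, at -0.25 ± 0.07 (adjusted p = 0.025). The call in PD-L1 high was lost without PD-L1 high library 1 or 3, without treated all library 1 or 3, and with a pseudocount of 0.1 (adjusted p = 0.065 to 0.087 in these fits). Cxcl9, 105.9 kb away, had 4.09 ± 0.276 in PD-L1 high, 2.91 ± 0.535 in treated all and 0.0225 ± 0.0330 in untreated all. It rose by 1.93 in treated all against untreated all (adjusted p = 2.7e-08) and by 0.39 for PD-L1 high against treated all (adjusted p = 0.021), the second call being lost in 7 alternative fits, among them that without PD-L1 high library 2 or 3 or treated all library 2. Cxcl11, annotated in GENCODE as a polymorphic pseudogene, did not exceed a signal of 0.46 and was not tested.

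Of the 20 annotated genes in the table within 500 kb, 11 were tested, 6 were detected below the filter and 3 were at 0 in every library (1700063O14Rik, Mir6415 and Fam47e). Of the 11, 7 rose, 1 fell and 3 did not pass in treated all against untreated all, with a median difference of 0.26 against -0.07 over all genes. For PD-L1 high against treated all 1 rose, 4 fell and 6 did not pass (median -0.14 against -0.01), and for PD-L1 high against untreated all 5 rose, 1 fell and 5 did not pass (median 0.09 against -0.10). After median-ratio scaling 8 rose and 1 fell in this last comparison (median 0.19). Without that scaling, 23.1% of all tested genes rose and 38.8% fell in treated all against untreated all. The shares were 11.5% and 14.1% for PD-L1 high against treated all, and 19.1% and 41% against untreated all. Uso1, a vesicle tethering factor whose end lies 7.1 kb away, had 30.2 ± 0.608 in PD-L1 high, 33.5 ± 1.20 in treated all and 28.0 ± 0.379 in untreated all. It rose by 0.25 in treated all (adjusted p = 9.2e-05). It was lower in PD-L1 high than in treated all, at -0.14 (adjusted p = 0.016), a call lost in 4 alternative fits (adjusted p = 0.050 to 0.065), among them those without PD-L1 high library 1 or treated all library 1. Ppef2, a phosphatase gene 11.3 kb away, was at or below 0.66 and not tested.

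**Figure D4:**
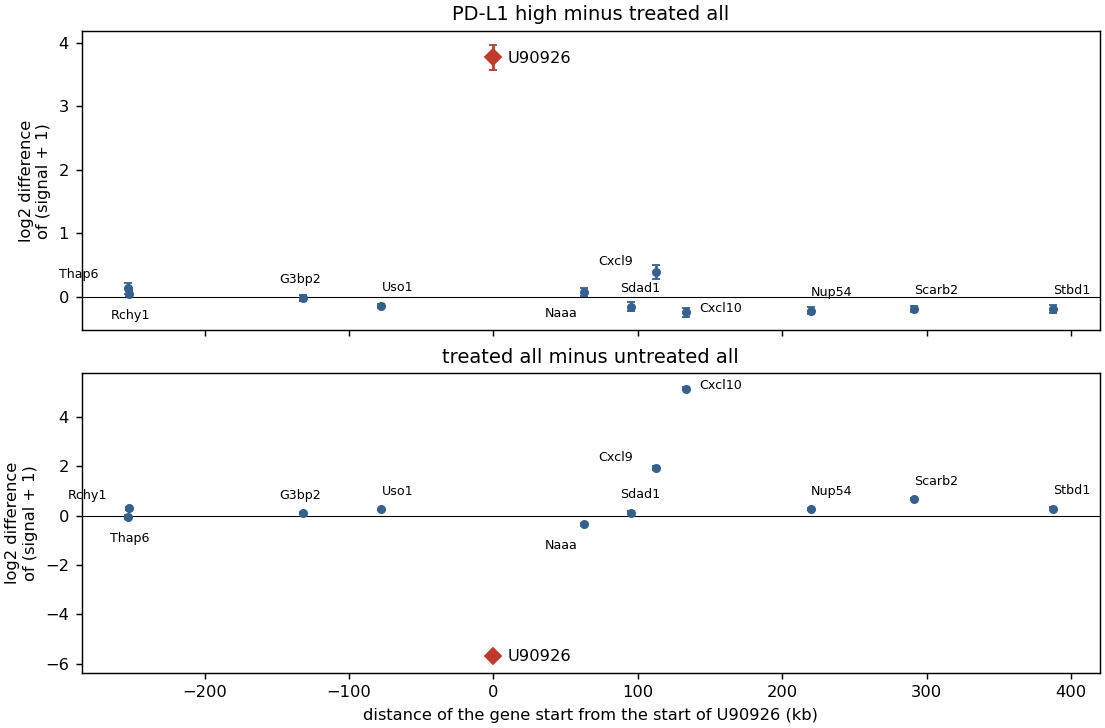
Log2 difference of (signal + 1) for U90926 (diamond) and its 11 tested neighbours within 500 kb (circles), by the distance of each gene's start from that of U90926 in kb, for PD-L1 high minus treated all (upper) and treated all minus untreated all (lower). Bars are standard errors, from the replicates for U90926 and from limma for the others; U90926 stands at 3.77 and -5.67, while Cxcl10 stands at -0.25 and 5.14.

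The 1 neighbour that fell with IFNγ was Naaa, a lysosomal amidase of lipid mediators 42.3 kb away. It had 13.5 ± 0.828 in PD-L1 high, 12.8 ± 0.390 in treated all and 16.6 ± 1.31 in untreated all, a difference of -0.35 in treated all (adjusted p = 7.3e-04) and of -0.27 in PD-L1 high against untreated all (adjusted p = 0.0036). The order of its means was that of U90926, but the difference of PD-L1 high from treated all, 0.07, did not pass (adjusted p = 0.48). Scarb2, a lysosomal membrane receptor, rose by 0.66 in treated all (adjusted p = 1.5e-07) and was lower in PD-L1 high than in treated all, at -0.19 (adjusted p = 0.0095). Nup54, a nuclear pore subunit, rose by 0.26 (adjusted p = 8.2e-04) and was lower in PD-L1 high than in treated all, at -0.22 (adjusted p = 0.011). Rchy1, a ubiquitin ligase, and Stbd1, a glycogen binding protein, rose by 0.29 and 0.28 in treated all (adjusted p = 3.4e-04 and 0.0032). G3bp2, Sdad1 and Thap6 did not pass, at 0.10, 0.12 and -0.06. After median-ratio scaling G3bp2 and Sdad1 passed in limma (adjusted p = 0.0020 and 0.014). G3bp2 also passed after upper-quartile scaling, with a replicate block and without untreated library 1 (adjusted p = 0.020, 0.048 and 0.018). Sdad1 also passed without treated all library 2 (adjusted p = 0.015).

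The annotation of U90926 as a long noncoding RNA sets it beside 275 other tested RNAs of that RefSeq class. In treated all against untreated all 53 of them rose, 82 fell and 140 did not pass, with a median of -0.08; for PD-L1 high against treated all 31 rose, 33 fell and 211 did not pass, with a median of 0.02. Against untreated all, PD-L1 high had 45 that rose, 82 that fell and 148 that did not pass, with a median of -0.13. These shares lie near or below those of all genes. The largest rise of the class in treated all, named after its values were seen, was AW112010, an immune-inducible transcript, at 4.07 (adjusted p = 2.3e-14).

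A list of 40 well-studied mouse long noncoding RNAs, of which 38 were in the table and 25 were tested, had 13 that rose, 5 that fell and 7 that did not pass in treated all against untreated all (median 0.17). The counts for PD-L1 high against treated all were 3, 13 and 9 (median -0.15), and for PD-L1 high against untreated all 7, 6 and 12 (median 0.04). Over all tested genes, 23.1% rose and 38.8% fell in treated all against untreated all. Those shares were 11.5% and 14.1% for PD-L1 high against treated all, and 19.1% and 41% against untreated all. Neat1, the scaffold of paraspeckles, had 106 ± 2.22 in PD-L1 high, 139 ± 1.10 in treated all and 48.9 ± 1.09 in untreated all, the reverse order of U90926 in treated all. Its differences were 1.48 (adjusted p = 1.8e-12) and -0.39 (adjusted p = 3.3e-06). The snoRNA host genes Zfas1, Snhg12 and Snhg5 rose by 0.89, 1.12 and 0.76 in treated all (adjusted p = 7.0e-09, 1.3e-08 and 3.6e-08). Of the same list, the host genes Snhg15, Snhg17 and Snhg12 were lower in PD-L1 high than in treated all, at -0.79, -0.66 and -0.66 (adjusted p = 2.5e-06, 7.5e-06 and 1.4e-05). Firre, an X-linked nuclear RNA, fell by 0.51 in PD-L1 high against untreated all (adjusted p = 2.1e-05).

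The genes that mediate the IFNγ response moved against U90926 in treated all. Of 18 signalling and transcription factor genes, 17 were tested and 16 rose, 0 fell and 1 did not pass in both comparisons with untreated all, with medians of 1.41 in treated all and 2.07 in PD-L1 high. Among all tested genes 23.1% rose and 38.8% fell in treated all, and 19.1% and 41% in PD-L1 high. Irf1, an interferon-induced transcription factor, rose by 3.83 in treated all (adjusted p = 2.1e-14). Batf2, its partner in macrophages, was listed at 0 in every untreated library and averaged 36.6 ± 2.82 in treated all (SD, n = 3, adjusted p = 7.3e-14). Against treated all, PD-L1 high had 3 that rose, 4 that fell and 10 that did not pass (median 0.04). Of all tested genes 11.5% rose and 14.1% fell in that comparison. The feedback inhibitors of cytokine signalling split there: Socs1 was higher by 0.67 (adjusted p = 3.3e-04) and Socs3 lower, at -0.64 (adjusted p = 2.6e-08), while Irf1 was lower, at -0.52 (adjusted p = 9.6e-06) and Nlrc5, which drives MHC class I expression, higher by 0.32 (adjusted p = 0.0055, and 0.22 with a pseudocount of 0.1).

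Toll-like receptor and NF-kB signalling is the setting in which U90926 is known from macrophages. Of 22 such genes 21 were tested; 14 rose, 4 fell and 3 did not pass in treated all against untreated all (median 0.37), and 0 rose, 9 fell and 12 did not pass for PD-L1 high against treated all (median -0.06). Against untreated all, PD-L1 high again had 14 that rose, 4 that fell and 3 that did not pass (median 0.17). The shares over all tested genes were 23.1% higher and 38.8% lower in treated all against untreated all. They were 11.5% and 14.1% for PD-L1 high against treated all, and 19.1% and 41% against untreated all. Nfkbia and Tnfaip3, inhibitors that NF-kB itself induces, had their highest level where U90926 had its lowest. Nfkbia was at 238 ± 2.38 in PD-L1 high, 489.8 ± 1.7 in treated all and 105 ± 1.11 in untreated all, and Tnfaip3 at 40.0 ± 0.297, 99.7 ± 2.89 and 17.5 ± 1.13. Set against treated all, both were lower in PD-L1 high, at -1.04 (adjusted p = 1.9e-10) and -1.30 (adjusted p = 3.0e-08). Of the receptors, Tlr2 rose by 1.88 in treated all against untreated all (adjusted p = 3.8e-10), and the adaptor Myd88 by 0.56 in PD-L1 high against untreated all (adjusted p = 7.4e-07).

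Of 14 CXC chemokines 8 were tested; 7 rose, 1 fell and 0 did not pass in each comparison with untreated all (medians 1.79 in treated all and 1.24 in PD-L1 high). The comparison of PD-L1 high with treated all had 1 that rose, 4 that fell and 3 that did not pass (median -0.14), and 2 rose after median-ratio or upper-quartile scaling. Without other scaling, 11.5% of all tested genes rose and 14.1% fell in that comparison. Against untreated all, 23.1% rose and 38.8% fell in treated all, and 19.1% and 41% in PD-L1 high. Cxcl1, Cxcl2 and Cxcl3, attractants of neutrophils, were lower in PD-L1 high than in treated all, at -1.12, -1.27 and -0.46 (adjusted p = 1.0e-09, 2.0e-06 and 0.011). Cxcl1 and Cxcl2 were higher in treated all than in untreated all by 2.22 and 3.01 (adjusted p = 6.5e-14 and 8.1e-11). Cxcl2 stood at 28.9 ± 2.32 in PD-L1 high, 71.3 ± 4.43 in treated all and 8.00 ± 0.856 in untreated all, again the opposite order.

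The immediate early and AP-1 genes, which include Fos, moved in both directions, with more of them called lower than higher in each comparison. All 22 were tested; 8 rose, 11 fell and 3 did not pass in treated all against untreated all (median -0.09), and 6 rose, 13 fell and 3 did not pass for PD-L1 high against treated all (median -0.23). Against untreated all PD-L1 high had 5 that rose, 14 that fell and 3 that did not pass (median -0.30). After median-ratio scaling 8 rose and 12 fell there. Without that scaling, 38.8% of all tested genes fell and 23.1% rose in treated all against untreated all. For PD-L1 high, 14.1% fell and 11.5% rose against treated all, and 41% and 19.1% against untreated all. Besides Fos, the transcription factor gene Egr1 and the phosphatase gene Dusp1 had the order of U90926. Egr1 was at 88.8 ± 2.20 in PD-L1 high, 44.0 ± 2.31 in treated all and 191.9 ± 3.56 in untreated all, and Dusp1 at 113 ± 2.72, 73.3 ± 1.57 and 305 ± 1.84. Their differences for PD-L1 high against treated all were 1.0 (adjusted p = 2.6e-08) and 0.61 (adjusted p = 3.9e-08), set beside 3.77 for U90926. Fosb and Nr4a1 had another order: Fosb fell by 1.29 in treated all against untreated all (adjusted p = 5.5e-10), and Nr4a1 was lower in PD-L1 high than in treated all, at -0.71 (adjusted p = 1.7e-09).

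Of 19 adipocyte differentiation genes 12 were tested; 7 rose, 4 fell and 1 did not pass in treated all against untreated all (median 0.20). For PD-L1 high against treated all 1 rose, 4 fell and 7 did not pass (median -0.09), and for PD-L1 high against untreated all 5 rose, 4 fell and 3 did not pass (median 0.12). Among all tested genes, 23.1% rose and 38.8% fell in treated all against untreated all. The shares were 11.5% and 14.1% for PD-L1 high against treated all, and 19.1% and 41% against untreated all. Pparg, the regulator that U90926 is reported to act on in preadipocytes, had 43.0 ± 0.773 in PD-L1 high, 46.2 ± 0.751 in treated all and 41.9 ± 0.600 in untreated all. It was lower in PD-L1 high than in treated all, at -0.10 (adjusted p = 0.028). That call was lost in 10 alternative fits (adjusted p = 0.050 to 0.099), among them those with either other scaling, without PD-L1 high library 1 or 3, without treated all library 1 or 2 and without untreated library 4. Cebpa, another adipocyte transcription factor, rose by 1.34 in treated all (adjusted p = 1.8e-08) and was lower in PD-L1 high than in treated all, at -0.44 (adjusted p = 0.0011). Srebf1, a regulator of lipid synthesis, and Scd1, a desaturase, rose by 0.44 and 0.45 in treated all (adjusted p = 6.4e-07 and 7.5e-07). The changes of Pparg were small beside those of U90926, whose levels spanned 1.56% to 100% of the untreated mean.

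Because U90926 is known from macrophages, markers of other cells were read beside it. Of 16 macrophage markers 3 were tested (Cd14, Cd68 and Mrc1), and Adgre1 and Fcgr1 were at 0 in every library. Their summed signal was 111 to 113 in PD-L1 high, 102 to 104 in treated all and 82.0 to 84.7 in untreated all, and Cd14 made up most of it, with 93.6 ± 0.799, 83.8 ± 0.969 and 62.4 ± 1.07. Cd14 and Cd68 rose and Mrc1 fell in treated all against untreated all, by 0.42, 0.75 and -0.81 (adjusted p = 6.5e-08, 2.1e-06 and 3.8e-06). Mrc1 was at 8.24 ± 0.064 in PD-L1 high, 8.12 ± 1.12 in treated all and 14.9 ± 0.564 in untreated all. The part of these markers in the level of U90926 was not tested. None of 10 T, B and NK cell markers and of 6 endothelial markers reached the filter. Summed markers of T, B and NK cells did not exceed 0.176 in any library, nor those of endothelium 0.654.

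Markers of the tumor epithelium were abundant in all groups, with sums of 5077 to 5155 in PD-L1 high, 5505 to 5530 in treated all and 4528 to 4691 in untreated all, and 11 of 12 were tested. In treated all against untreated all 5 rose, 4 fell and 2 did not pass (6 and 2 called after median-ratio scaling), and for PD-L1 high against treated all 6 rose, 4 fell and 1 did not pass. Over all tested genes 23.1% rose and 38.8% fell in treated all against untreated all. For PD-L1 high against treated all, 11.5% rose and 14.1% fell. Sox9, a transcription factor of duct cells, was lower in PD-L1 high than in treated all, at -1.19 (adjusted p = 5.7e-09) and Lcn2, a secreted iron-carrier binding protein, higher by 0.65 (adjusted p = 4.7e-06). Of 8 fibroblast markers 5 were tested; 1 rose, 3 fell and 1 did not pass in treated all against untreated all, and 1 rose, 1 fell and 3 did not pass for PD-L1 high against treated all, where 2 rose after either other scaling. They summed to 142 to 151 in PD-L1 high, 128 to 139 in treated all and 172 to 188 in untreated all, the same order of groups as U90926; their part in its level was not tested. Col3a1, a fibrillar collagen gene of that list, made up most of the sum, with 125 ± 4.94, 107 ± 4.35 and 146 ± 6.93. Other members had other orders in the same groups. Pdgfra averaged 10.3, 14.1 and 20.1, Col1a1 3.04, 3.42 and 6.97, and Pdpn 1.53, 2.04 and 1.01. Acinar markers, of which 2 of 8 were tested, summed to 19.1 to 25.7 in PD-L1 high, 13.2 to 17.4 in treated all and 13.3 to 17.7 in untreated all.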

How the data were processed

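RNA was measured in 10 libraries: 3 PD-L1 high, 3 treated all and 4 untreated all, grouped by their titles. Per the labels, total RNA was made into libraries by standard Illumina protocols, and per the submitters' processing notes the build was mm10 and CASAVA 1.7 was used. No source used here names the aligner, counting tool, annotation or unit. The authors deposited a normalized signal per gene, so no count test was possible, depth per library is unknown and no counting interval can be given; totals of 698396 to 715500 per library reflect that normalization. The group mean columns were not used.

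The table had 25507 rows, 695 without a value. The 24812 others matched mouse symbols, and rows of 52 repeated symbols were added up. Signal was transformed as log2(signal + 1), which understates differences of low genes, and the 11487 genes with a mean of at least 1 were fitted with limma 3.58.1 in R 4.3.3 (1 mean per group, trend, robust variances, Benjamini-Hochberg, threshold 0.05), a step tested on simulated data. Errors are SDs of libraries or standard errors.

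The gene, its lists and its tests were chosen with earlier results of these data known. U90926 itself has no p. Named genes were the tested neighbours within 500 kb, the 10 lowest and 10 highest differences, the 10 highest Pearson's r, up to 10 genes with both steps and for each list up to 4 called members by smallest adjusted p, without predicted or clone names; not every such gene is described, and 1 is not reported here. Gene models are from GENCODE M21, promoters and the noncoding class from RefSeq; figures are from Python 3.11.15 with matplotlib 3.10.9. Alternatives were other pseudocounts (0.1 and 4), filters, scalings, variance settings, windows, likeness measures, sets of libraries and a replicate block.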

Additional observations from a re-analysis of the deposited data

Results flagged for a closer look

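Only untreated all has 4 libraries, so all 97 groups of 4 examined for a library far from the others were of untreated all. Of these, 5 held such a library. Chance alone gives about 1 in 20 groups, a rate that may not hold for genes listed mostly at 0. Exosc6 stood at 9.09 in untreated library 2, Mir8098 at 42.23 and Snora75 at 18.95 in untreated library 4, Mir6340 at 34.93 in untreated library 3 and Cxcl11 at 0.04 in untreated library 3. In Mir8098, Snora75, Mir6340 and Cxcl11 the other untreated libraries were at 0. U90926 itself was not among them, with 228, 235, 231 and 229.7.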

How the results depend on the processing

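The direction of U90926 was the same in every alternative run. Its differences in treated all against untreated all were -5.99 and -4.96 with pseudocounts of 0.1 and 4, and for PD-L1 high against treated all 4.07 and 3.10, since a smaller pseudocount widens differences of low values. With a pseudocount of 0.1 its place was 2 among the lowest in treated all against untreated all, 40 for PD-L1 high against untreated all and 3 among the highest for PD-L1 high against treated all; with 4 it was 3 for PD-L1 high against untreated all. Leaving out 1 library gave differences of -5.81 to -5.59, 3.69 to 3.91 and -1.98 to -1.76 for treated all against untreated all, PD-L1 high against treated all and PD-L1 high against untreated all, and places of 1 to 2, 1 to 3 and 13 to 19. Without untreated libraries 3 and 4, 2061 genes were called higher and 3404 lower in treated all against untreated all, against 2648 and 4458 with them. For PD-L1 high against treated all the numbers were 883 and 1009, against 1320 and 1623. For PD-L1 high against untreated all they were 1661 and 3399, against 2189 and 4711. The cause was not tested. Called neighbours for PD-L1 high against treated all numbered 3, against 5, with only the 2 groups compared or a pseudocount of 0.1. They also numbered 3 without untreated libraries 3 and 4 or with a 200 kb window. That window left 4 of 8 in treated all against untreated all. Likeness to U90926 kept 0 of 10 genes with Spearman's rho or no log.

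Without 1 library the calls in treated all against untreated all were 2399 to 2668 higher and 4032 to 4471 lower, 104 to 108 list members and 8 to 9 neighbours. For PD-L1 high against treated all they were 1074 to 1291, 1248 to 1610, 60 to 78 and 3 to 5, and for PD-L1 high against untreated all 1967 to 2209, 4167 to 4781, 96 to 102 and 5 to 7. Deviations of same-numbered libraries from their group means correlated at -0.181 to 0.104. Whether the libraries were paired by culture or day cannot be told from these values. With a replicate block the differences of U90926 were -5.67, 3.77 and -1.90, and the calls 2487 higher and 4031 lower, 1089 and 1343, and 2024 and 4171. No call of a named gene turned its direction under any setting.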
